A study of Mus musculus with 23 samples.

Results

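The Eva1 family of the mouse, Eva1a, Eva1b and Eva1c, was followed in PyMT tumors in which IL-38 was neutralized, deleted or left intact. Eva1a was chosen by its readout, as the gene with the strongest change between tumors with IL-38 inhibited and their controls in these same libraries, and the other members were taken because they share its family. The family thus comprises 3 of the 47643 genes listed. Whole tumor RNA was measured by 3′ mRNA sequencing in 23 libraries, each of 1 tumor sample. All mice were female and carried the polyoma middle T oncogene (PyMT), which causes mammary carcinoma, on a C57BL/6 background.

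In the neutralization experiment, PyMT mice received an anti-IL-38 antibody (anti-IL-38, n = 6) or a human IgG1 isotype control (IgG, n = 5) at 100 µg per week for 5 weeks, once a first tumor had formed. In the other experiment, wildtype PyMT mice received polyclonal hamster IgG (WT + IgG, n = 4), and PyMT mice with a whole-body IL-38 knockout received either the same IgG (KO + IgG, n = 4) or an antibody to the γδ T-cell receptor (KO + anti-γδTCR, n = 4), at 500 µg and then 200 µg per week for 5 weeks. All IL-38 KO mice thus received hamster antibodies, and none of them received the anti-IL-38 antibody. The knockout affects every cell of the mouse, and in whole tumors fewer cells of a type and less RNA per cell cannot be told apart.

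EVA1 proteins are membrane proteins named after eva-1 of the nematode, a receptor that acts beside the Robo receptor when axons sense the guidance cue Slit. Eva1a, also called Tmem166 or Fam176a, encodes a protein of the endoplasmic reticulum and lysosome membrane that is known to promote autophagy, the degradation of cell contents in lysosomes, and programmed cell death. Eva1c encodes a larger protein with lectin-like domains outside the cell that bind heparin. Eva1b, also called Fam176b, is the member whose role is least known.

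The members lie on separate chromosomes in GENCODE M21 on GRCm38. Eva1a (ENSMUSG00000035104) spans chr6:82041043-82093099 on the plus strand, and its transcript has 3 exons and 468 coding bases. Eva1b (ENSMUSG00000050212) occupies only 2132 bases at chr4:126147744-126149875 on the plus strand, with 492 coding bases. Eva1c (ENSMUSG00000039903) spans chr16:90826719-90905109 on the plus strand, and its principal transcript has 8 exons and 1320 coding bases.

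The 250 bases in front of the RefSeq start site of Eva1a are shown because it is the member on which the results turn. They lie at chr6:82041378-82041627 of GRCm38.p6 and are given 5′ to 3′ on the plus strand. Capitals mark GTGGGAA, the core sequence bound by RBPJ, the DNA-binding partner of Notch, and CACGTG, the palindromic E-box known from basic helix-loop-helix factors such as TFEB. Both strands were searched, GTGGGAA on the minus strand reading TTCCCAC.
Eva1a: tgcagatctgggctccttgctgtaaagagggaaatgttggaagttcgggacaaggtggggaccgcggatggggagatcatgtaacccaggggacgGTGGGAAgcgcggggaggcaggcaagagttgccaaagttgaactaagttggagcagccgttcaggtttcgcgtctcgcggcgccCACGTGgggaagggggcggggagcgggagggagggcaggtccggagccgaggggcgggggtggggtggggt

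The RefSeq start sites differ from the gene starts of GENCODE given above, which belong to the outermost transcript of each gene. They lie 585 bases inside the gene for Eva1a, 259 for Eva1b and 4140 for Eva1c, and 5, 0 and 0 bases from the start of the nearest GENCODE transcript. GENCODE exons cover 5 of the 250 bases in front of the RefSeq start of Eva1a, all 250 of Eva1b and 51 of Eva1c.

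Counted from the RefSeq start site, the Eva1a stretch held GTGGGAA from position -155 and CACGTG from position -71. The stretch of Eva1b, at chr4:126147753-126148002, held CACGTG alone, from position -209. That of Eva1c, at chr16:90830609-90830858, held GTGGGAA alone, on the minus strand from position -161. Of 32851 RefSeq promoter stretches of this length, 5.42% held GTGGGAA and 6.02% held CACGTG, and the motifs were picked after the sequences had been seen. All members were GC-rich, at 62.0% to 65.2% against a median of 52.4% over all stretches. No binding was measured here, so these are matches of letters only.

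The libraries held 6273049 to 15879164 reads on genes. Il1f10, which encodes IL-38, had 0 reads in all 23 libraries, WT and KO alike, which allows up to 0.189 to 0.478 CPM (counts per 1000000 reads on genes), so the targeted gene could not check the labels at this depth. KO + IgG replicate 4 and the 4 KO + anti-γδTCR libraries stood apart, with a processed-pseudogene share of 1.31% to 1.98%, compared with 0.0943% to 0.191% elsewhere, and with 11.3% to 20.1% of reads on Gm42418, a gene that overlaps ribosomal RNA sequence, against 2.62% to 5.70%. Their numbers on the sample sheet, 19 to 23, were consecutive. Intervals and limits given here cover counting error only.

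Eva1a was low in every control tumor. The IgG tumors had 17, 6, 6, 4 and 10 reads of Eva1a, or 1.32, 0.433, 0.410, 0.299 and 0.744 CPM. The WT + IgG tumors had 6, 6, 10 and 15 reads, or 0.522, 0.468, 0.768 and 1.32 CPM. Both sets of controls, which came from different experiments and isotypes, covered nearly the same range.

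The anti-IL-38 tumors had 52, 25, 40, 15, 13 and 71 reads of Eva1a, or 3.87, 1.80, 3.17, 1.35, 1.08 and 7.003 CPM. The KO + IgG tumors had 52, 33, 142 and 53 reads, or 4.12, 2.55, 8.94 and 6.15 CPM. The KO + IgG levels lay above those of every control tumor, whereas anti-IL-38 replicate 5 lay among the highest controls. As Eva1a was chosen in these tumors, this separation is a description, and how many of all genes show it was not counted. At 13 reads, the exact Poisson interval of that tumor, 0.577 to 1.85 CPM, included the level of IgG replicate 1.

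The KO + anti-γδTCR tumors had 31, 14, 7 and 27 reads of Eva1a, or 3.87, 1.64, 1.12 and 3.07 CPM. In order of the mean level, KO + IgG had 5.44 ± 2.76 CPM (SD, n = 4), anti-IL-38 had 3.05 ± 2.22 CPM (SD, n = 6) and KO + anti-γδTCR had 2.42 ± 1.27 CPM (SD, n = 4). WT + IgG followed with 0.769 ± 0.388 CPM (SD, n = 4) and IgG with 0.641 ± 0.414 CPM (SD, n = 5). Each group overlapped with the next in this order. These levels set libraries side by side that were normalized in separate tables, and the order is a description with no test.

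**Figure D1:**
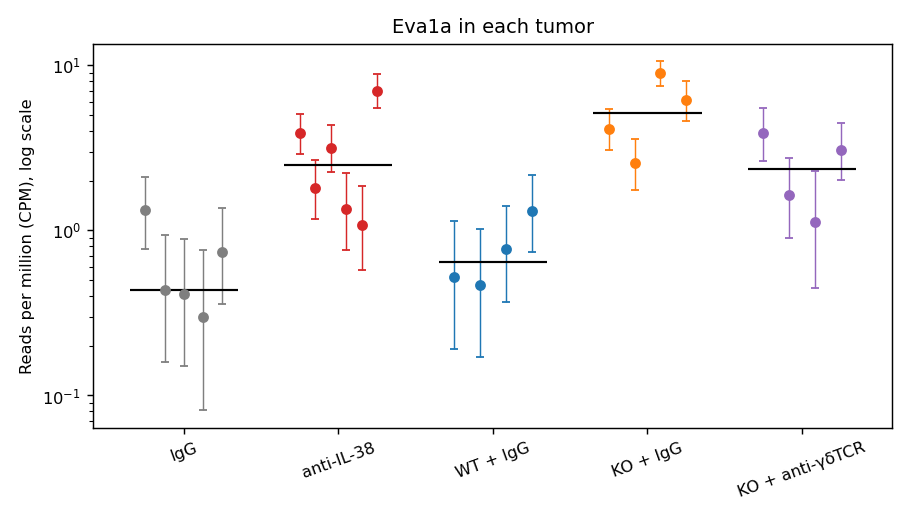
Eva1a in each tumor, in CPM on a log axis, for the 5 groups. Each point is 1 tumor with its exact 95% Poisson interval, and black lines are group medians. The 4 KO + IgG tumors, at 2.55 to 8.94 CPM, lie above all 9 control tumors, and the lowest anti-IL-38 tumor, at 1.08 CPM, lies among them. Eva1a was chosen by its change between these inhibited and control tumors.

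With IL-38 inhibited by either means, the normalized count of Eva1a was 50.0 ± 31.6 (SD, n = 10), against 8.44 ± 4.48 (SD, n = 9) in the controls. The difference was 2.29 ± 0.37 (SE) on the log2(normalized count + 1) scale, which understates changes of low genes. Of the tumors, 9 of 10 lay above every control, and how many of all genes do so was not counted. Ranked by the p of limma over 16352 genes, Eva1a was in place 1, followed by Dll1, a Notch ligand, with a log2 difference of 1.19 and by Txndc5, a protein disulfide isomerase, with 0.95. Because Eva1a was selected on this contrast, no p-value is given for it here or in either experiment alone. No gene passed an adjusted p of 0.05 in limma (0% of 16352), although 1725 had an unadjusted p below 0.05, and 1 passed in edgeR and 70 in DESeq2 on the recovered reads. Without IgG replicate 3, 23 genes passed in limma.

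Within the neutralization experiment, the normalized count was 39.9 ± 28.6 (SD, n = 6) with anti-IL-38 and 8.03 ± 4.97 (SD, n = 5) with IgG, a log2 difference of 2.05 ± 0.51 (SE). Of the treated tumors, 5 of 6 lay above every control, and how many of all genes do so was not counted. Within the comparison of genotypes the normalized count of Eva1a was 65.1 ± 33.6 (SD, n = 4) in KO + IgG and 8.97 ± 4.47 (SD, n = 4) in WT + IgG, a log2 difference of 2.67 ± 0.46 (SE). All 4 KO + IgG tumors lay above every WT + IgG tumor, which held for 606 of 16563 genes tested, or 3.66%. In limma, 0% of 16002 genes passed with the antibody (1682 at an unadjusted p below 0.05, and 75 passed in DESeq2) and 0.00604%, which is the predicted gene Gm10093 alone, passed with the knockout. Without IgG replicate 3 the former count was 6. The latter was 298 in DESeq2, 0 in edgeR, 7 without WT + IgG replicate 3 or KO + IgG replicate 4, 4 without KO + IgG replicate 1, and 0 without WT + IgG replicate 1 or 2 or KO + IgG replicate 2 or 3. With 1 tumor left out, the log2 difference of Eva1a ran from 1.76 to 2.32 for the antibody and from 2.39 to 2.99 for the knockout. As Eva1a was chosen in these same tumors, this range describes its spread and is no support.

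The difference of Eva1a with the antibody was 0.63 lower on the log2 scale than that with the knockout, with a standard error of 0.74 (interaction term over 19 tumors), given with no p-value since the same tumors chose Eva1a. For Eva1b, which was not chosen on its level, the antibody minus the knockout effect was 0.19 (95% interval -0.39 to 0.77, adjusted p = 0.887, limma interaction term).

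Within a group, Eva1a varied widely. From the lowest to the highest tumor it ran from 13.4 to 89.9 normalized counts with anti-IL-38 and from 29.7 to 107 in KO + IgG. In the controls the ranges were 3.69 to 16.1 with IgG and 5.65 to 15.3 in WT + IgG. The highest tumor of each inhibited group, anti-IL-38 replicate 6 and KO + IgG replicate 3, had libraries of 10138353 and 15879164 reads, the latter the deepest of all.

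Eva1b gave a different picture from Eva1a, with overlapping levels in all groups. The IgG tumors had 35.4, 45.7, 61.4, 73.0 and 40.0 CPM, and the anti-IL-38 tumors ran from 37.9 to 55.0 CPM with a median of 47.9. The WT + IgG tumors had 51.8, 50.4, 45.8 and 59.4 CPM, and the KO + IgG tumors 51.5, 53.9, 40.6 and 29.8 CPM. All groups overlapped, and the widest spread among the 19 tumors was within IgG.

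With IL-38 inhibited, the normalized count of Eva1b was 571 ± 102 (SD, n = 10) against 628 ± 147 (SD, n = 9), a log2 difference of -0.13 (95% interval -0.41 to 0.16). It did not pass the test (adjusted p = 0.759 in limma, and p = 0.378 in an exact two-sided permutation test, 0.487 adjusted over the 9 tests of members). For anti-IL-38 the difference was -0.05 (-0.45 to 0.34, adjusted p = 0.936), and for the knockout it was -0.24 (-0.65 to 0.16, adjusted p = 0.606). The sign with anti-IL-38 turned when IgG replicate 4, the tumor with the highest Eva1b of the 19, IgG replicate 3 or anti-IL-38 replicate 5 was left out, to 0.0800, 0.0383 and 0.00929. These intervals do not reach the differences seen for Eva1a. As Eva1a was chosen by its change in these same tumors, this is a description and no support for a difference between the members.

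Eva1c was near the limit of detection. The IgG tumors had 1, 0, 0, 0 and 3 reads, and the anti-IL-38 tumors 3, 14, 0, 6, 6 and 0. The WT + IgG tumors had 10, 2, 2 and 6 reads, and the KO + IgG tumors 6, 2, 10 and 1. Pooled over the tumors of a group this was 0.0587 CPM (exact 95% Poisson interval 0.0160 to 0.150) with IgG, 0.397 CPM (0.266 to 0.570) with anti-IL-38, 0.410 CPM (0.251 to 0.634) in WT + IgG and 0.379 CPM (0.228 to 0.592) in KO + IgG, and the intervals take no account of the spread between tumors.

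The IgG group thus held the fewest reads of Eva1c, whereas WT + IgG, the other control group, was level with the inhibited tumors. The mean normalized count of Eva1c was below 5, so it did not enter the main limma fits of these 3 comparisons. In fits without that filter, its adjusted p in limma was 0.784 with IL-38 inhibited, 0.636 for anti-IL-38 and 0.929 for the knockout. Two-sided exact permutation tests gave p = 0.275 with IL-38 inhibited, p = 0.156 for anti-IL-38 and p = 0.714 for the knockout (0.429, 0.429 and 0.801 adjusted over the 9 tests). No difference was detectable at this depth, and the sign for the knockout turned when KO + IgG replicate 2 or 4 or WT + IgG replicate 1 was left out, to 0.0401, 0.112 and 0.198.

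**Figure D2:**
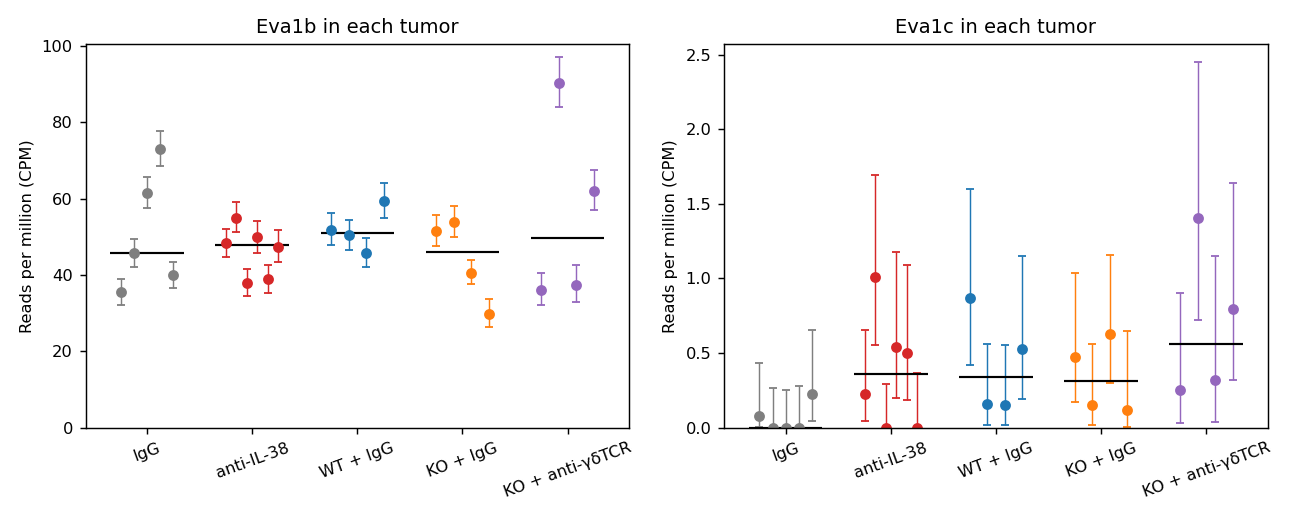
Eva1b (left) and Eva1c (right) in each tumor, in CPM on linear axes starting at 0, for the 5 groups. Points are tumors with exact 95% Poisson intervals and black lines are group medians. Eva1b overlaps between all groups, and Eva1c is at 0 in 3 IgG and 2 anti-IL-38 tumors.

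To compare the members tumor by tumor, Eva1a was expressed as reads per 100 reads of Eva1b in the same library, which removes the size factor of the library. The IgG tumors had 3.73, 0.948, 0.667, 0.410 and 1.86, and the WT + IgG tumors 1.01, 0.929, 1.68 and 2.22. The anti-IL-38 tumors had 8.02, 3.28, 8.35, 2.72, 2.79 and 14.8, and the KO + IgG tumors 8.0, 4.72, 22.0 and 20.6. The KO + IgG tumors lay above all controls, while 3 anti-IL-38 tumors fell below IgG replicate 1, which had the lowest Eva1b of its group. As the ratio uses the Eva1a reads by which the gene was chosen, this is a description and no further support.

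The KO + anti-γδTCR tumors had 10.7, 1.81, 2.98 and 4.95 reads of Eva1a per 100 of Eva1b. Replicate 2 of this group had the highest Eva1b of all 23 tumors, at 90.4 CPM. KO + IgG replicate 4 reached 20.6 with 53 reads of Eva1a and the lowest Eva1b of the 23 tumors, at 29.8 CPM. The ratio thus moved with both genes, and it compares tumors rather than the genes with each other, since reads were not scaled by length.

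Across the 19 tumors of the larger table, with the mean of each group subtracted from log2 values, Eva1a and Eva1b had Pearson's r = -0.388 (permutation p = 0.119, 0.357 adjusted over 3 pairs) and Spearman's rho = -0.344 (permutation p = 0.176, 0.529 adjusted). Without the 2 tumors farthest from the median, r was -0.470 (permutation p = 0.0906). Within the neutralization experiment r was -0.393 (n = 11, permutation p = 0.200), and within WT + IgG and KO + IgG it was -0.377 (n = 8, exact permutation p = 0.481). In the 5 IgG tumors the order of normalized Eva1a was the reverse of that of Eva1b, although replicates 2 and 3 both had 6 reads of Eva1a. Over all groups the relation did not pass the test.

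Eva1a and Eva1c had r = -0.245 (permutation p = 0.408, 0.612 adjusted) and rho = -0.196 (permutation p = 0.480, 0.720 adjusted), and the sign differed between the experiments, with r = -0.451 in the neutralization experiment and r = 0.314 across genotypes. Without the 2 farthest tumors r was -0.133. For Eva1b and Eva1c, r was -0.00169 (permutation p = 0.995, 0.995 adjusted) and rho was 0.0703 (permutation p = 0.772, 0.772 adjusted), and r was -0.0495 without the 2 farthest tumors. No pair of members was shown to vary together within groups.

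**Figure D3:**
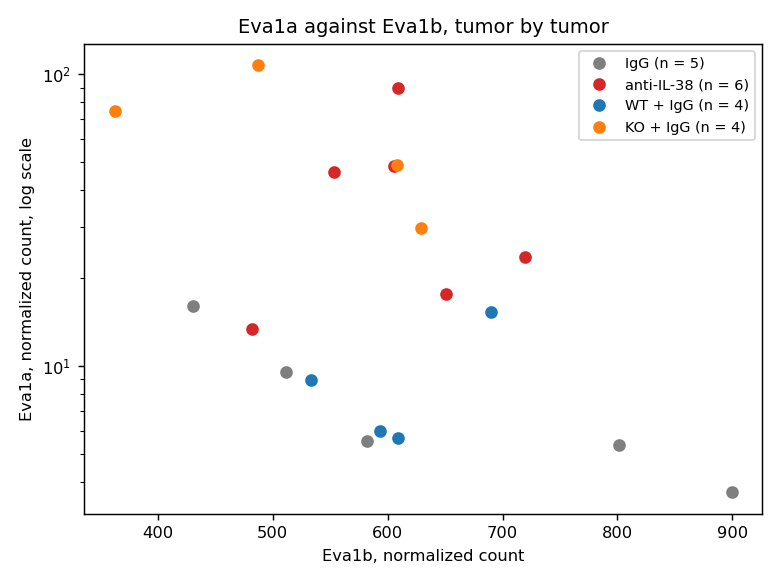
Normalized counts of Eva1a (log axis) against Eva1b (linear axis that does not start at 0) in the 19 tumors of the larger table, coloured by group. Tumors with IL-38 inhibited lie higher on the Eva1a axis, with 9 of 10 above every control, at Eva1b counts of 362 to 719 against 431 to 899 in controls. Eva1a was chosen on this difference, and how many of all genes separate in this way was not counted.

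The next question was whether Eva1a differed when γδ T cells were targeted in IL-38 KO tumors. In the table normalized for this comparison, Eva1a was at 36.5, 22.5, 82.8 and 58.5 normalized counts in KO + IgG and at 40.5, 16.02, 12.7 and 29.7 in KO + anti-γδTCR. All 4 tumors with anti-γδTCR lay below the median of KO + IgG and 2 lay below every KO + IgG tumor. Of these 2, replicate 3 had the fewest reads of all libraries (6273049) and 7 reads of Eva1a. It also had the highest share on Gm42418 (20.1%). Its library name alone carries the mark rep, whose meaning is not given. The means were 24.7 ± 12.9 (SD, n = 4) with anti-γδTCR and 50.1 ± 26.4 (SD, n = 4) without, a log2 difference of -0.97 (95% interval -2.05 to 0.10).

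This difference in Eva1a did not pass the test (adjusted p = 0.279 in limma, and p = 0.143 in an exact two-sided permutation test, where 0.0286 is the smallest possible, 0.429 adjusted over 9 tests). Without KO + anti-γδTCR replicate 3 it was -0.72 (adjusted p = 0.465 in limma). The KO + IgG tumors were also among those by which Eva1a was chosen, so their height is not independent of the choice. In limma 0% of 16481 genes passed (3570 at an unadjusted p below 0.05), against 0 in edgeR and 1030 in DESeq2. Without KO + IgG replicate 4, the library that resembled the KO + anti-γδTCR libraries in read composition, 2357 genes passed, and Eva1a was at -0.85 (adjusted p = 0.344). That library had 58.5 normalized counts of Eva1a, above all 4 KO + anti-γδTCR tumors. Within these 5 libraries of like composition there was 1 control, and between the others the antibody and the read composition cannot be told apart.

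Eva1b in the same comparison was at 456, 477, 376 and 284 normalized counts in KO + IgG and at 378, 886, 425 and 601 with anti-γδTCR, a log2 difference of 0.47 (95% interval -0.14 to 1.07, adjusted p = 0.357 in limma). Eva1c had 2, 12, 2 and 7 reads with anti-γδTCR and differed by 0.90 (-0.64 to 2.44, adjusted p = 0.504 in limma). Its mean normalized count was 3.13 in KO + IgG and 6.92 with anti-γδTCR. It thus reached the minimum mean of 5 for limma only through the group where it was higher, and its limma values are no support. Exact permutation tests gave p = 0.229 for Eva1b and p = 0.200 for Eva1c (both 0.429 adjusted over 9 tests). No member of the family passed the test for γδ TCR blockade, beside 0% of all 16481 genes tested. The groups overlapped for each member.

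**Figure D4:**
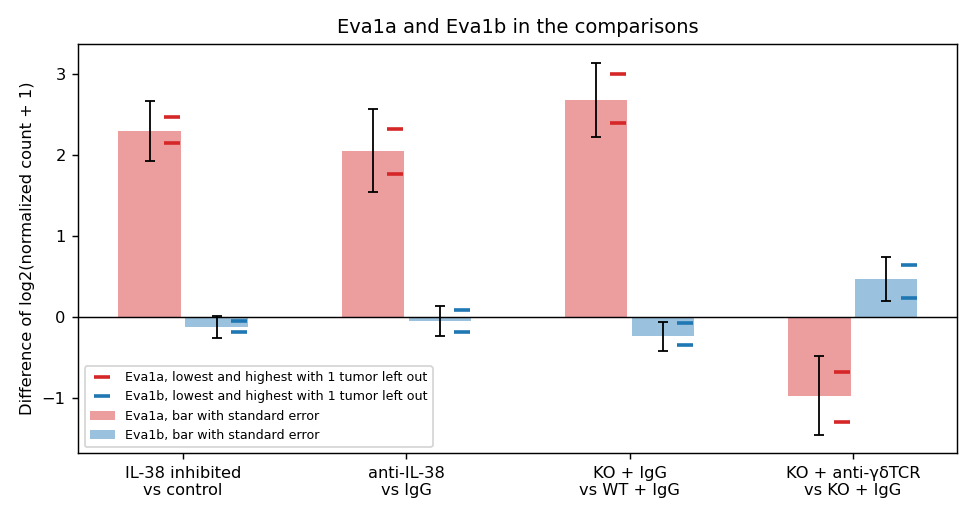
Differences of log2(normalized count + 1) for Eva1a and Eva1b in the 4 comparisons. Bars start at 0 and show the estimate with its standard error, and short coloured lines show the lowest and highest estimate with 1 tumor left out. Eva1a was chosen on the first comparison, where it is at 2.29, and Eva1b stays between -0.24 and 0.47 in all 4.

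No gene next to a member passed the test with IL-38 inhibited, where 0% of all 16352 genes tested passed. Mrpl19, a mitochondrial ribosomal protein gene 75085 bases away, had 318 ± 111 (SD, n = 10) normalized counts in the inhibited tumors against 334 ± 82.5 (SD, n = 9), a log2 difference of -0.12 (adjusted p = 0.851, limma). Tacr1, the substance P receptor gene 309235 bases away, was at 25.8 ± 10.4 (SD, n = 10) and 21.8 ± 9.12 (SD, n = 9), a log2 difference of 0.22 (adjusted p = 0.802). Gm15864, annotated antisense to Eva1a, had 0 reads in the 19 libraries. For the neighbours of Eva1b, the kinase gene Stk40 and Sh3d21, which lies 727 bases away on the opposite strand, the log2 differences were -0.05 (adjusted p = 0.901) and -0.13 (adjusted p = 0.902). For those of Eva1c, Urb1 and Cfap298, they were 0.17 (adjusted p = 0.823) and -0.01 (adjusted p = 0.990).

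The genes whose levels were most like Eva1a over the 19 tumors, out of 16351, were Yipf4 (r = 0.840), Spcs3 (r = 0.822), Trappc11 (r = 0.810), Stk26 (r = 0.807) and Ptk7 (r = 0.803). These correlations include the difference between groups by which Eva1a was chosen. Of the 5, Yipf4 and Trappc11 are known from membrane traffic around the Golgi and Spcs3 is a subunit of the signal peptidase of the endoplasmic reticulum, while Stk26 is a kinase and Ptk7 a membrane pseudokinase. Ptk7 had 513 normalized counts in controls and 1117 with IL-38 inhibited, a log2 difference of 1.13.

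With group means subtracted, the most alike were Zfp53 (r = 0.843), Zswim3 (r = 0.829), Trappc11 (r = 0.824), Peli1 (r = 0.799) and Cep97 (r = 0.780). Zfp53 encodes a zinc finger protein, Peli1 a ubiquitin ligase and Cep97 a centrosomal protein. Trappc11 was thus in both sets, at 284 normalized counts in controls and 329 with IL-38 inhibited. As the highest of 16351 values over 19 tumors that share libraries, these are descriptions with no test. Eva1b was searched and was not among them, and Eva1c was below the filter and was not searched.

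Because Eva1a is known from autophagy, the core autophagy genes were described as a list of 43, all of which were tested. With IL-38 inhibited, 0 passed, beside 0% of all 16352 genes tested. Of the 43, 16 were higher and 27 lower, with a median log2 difference of -0.06 against 0.00471 over all genes. The smallest p-values belonged to Gabarapl1, an Atg8 family protein of the autophagosome, at -0.30 (adjusted p = 0.342), Nbr1, a cargo receptor, at 0.35 (adjusted p = 0.388), and Nrbf2, a subunit of the Beclin complex, at -0.37 (adjusted p = 0.434). Atg16l1, the reported partner of Eva1a in autophagosome formation, was at 338 ± 54.7 (SD, n = 10) against 325 ± 59.2 (SD, n = 9) normalized counts, a log2 difference of 0.06 (adjusted p = 0.884). For anti-IL-38 alone 22 were higher and 21 lower, and for the knockout 13 and 30. In either, 0 passed, beside 0% of 16002 and 0.00604% of 16563 genes tested.

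With γδ TCR blockade, 0 of 43 core autophagy genes passed, beside 0% of all 16481 genes tested. Of the 43, 27 were higher and 16 lower, with a median of 0.11 against 0.0216 over all genes. The smallest p-values belonged to the cargo receptors Sqstm1 at 1.03 (adjusted p = 0.0657) and Optn at 0.83 (adjusted p = 0.0722), and to Wdr45b, a phosphoinositide-binding protein, at 0.58 (adjusted p = 0.0752). Without KO + IgG replicate 4, a setting added after seeing the data, 8 of 43 passed, 7 higher and 1 lower, beside 14.3% of all 16480 genes tested. The count lies little above that share, so it shows nothing particular to autophagy genes. Sqstm1 was then at 1.29 (adjusted p = 0.000264), and Optn, Wdr45b, Tfeb, the autophagy and lysosome transcription factor, Gabarap, Becn1 and Uvrag were higher by 0.44 to 1.04. Atg7, the enzyme that activates Atg8 proteins, was the lower one at -0.80 (adjusted p = 0.00689). These calls rest on leaving out the 1 control library whose composition resembled the treated ones. Between the libraries that remain, the antibody and the read composition cannot be told apart.

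The Slit ligands, Robo receptors and their GTPase-activating partners, the pathway in which nematode eva-1 acts, made a list of 10, of which 8 were tested with IL-38 inhibited. Of these 0 passed, beside 0% of all 16352 genes tested, and 6 were higher and 2 lower, with a median of 0.16. The smallest p-values belonged to Srgap1, a GTPase-activating partner of Robo, at -0.34 (adjusted p = 0.570), with 61.7 ± 28.6 (SD, n = 10) against 74.9 ± 16.6 (SD, n = 9) normalized counts, and to the ligands Slit2 at 0.25 (adjusted p = 0.724) and Slit3 at 0.42 (adjusted p = 0.742). For anti-IL-38 alone 0 of 9 passed, with a median of 0.25, beside 0% of all 16002 genes tested. For the knockout it was 0 of 8, with a median of -0.01, beside 0.00604% of 16563.

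With γδ TCR blockade, 0 of 8 tested Slit and Robo genes passed, beside 0% of all 16481 genes tested. Of the 8, 7 were higher and 1 lower, with a median of 0.50 against 0.0216 over all genes. The GTPase-activating genes Srgap2, at 0.79 (adjusted p = 0.0966), and Srgap1, at 1.11 (adjusted p = 0.110), had the smallest p-values, followed by the receptor Robo2 at 1.33 (adjusted p = 0.126). Without KO + IgG replicate 4, the setting added after seeing the data that drops the 1 control of like read composition, Srgap2 and Srgap1 passed, 2 of 8 and both higher, beside the same 14.3% of all genes tested. With so few genes this count shows nothing particular to the list. There, too, the antibody and the read composition cannot be told apart.

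Marker genes of the cell types in these tumors were set beside Eva1a. No tested marker passed in any of the 4 comparisons, beside 0% to 0.00604% of all genes tested. The counts below are thus of directions only. All 10 luminal epithelial markers, which label the carcinoma cells of these tumors, were higher with IL-38 inhibited (median log2 difference 0.31), 10 of 10 with anti-IL-38 (0.70) and 5 of 10 with the knockout (-0.07). With γδ TCR blockade, where the antibody and the read composition cannot be told apart, 9 of 10 were higher (0.24). Their summed level ran from 1748 to 3535 CPM with IgG, 2531 to 5118 with anti-IL-38, 2459 to 3624 in WT + IgG and 3257 to 3724 in KO + IgG, and no marker was at 0 in any group. Their part in the Eva1a difference was not tested.

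All 8 macrophage markers were lower with IL-38 inhibited (median -0.27) and in the knockout (-0.48), and 5 of 8 were lower with anti-IL-38 (-0.19). With γδ TCR blockade 7 of 8 were lower (-0.72), at a summed 678 to 1086 CPM against 874 to 2123 in KO + IgG. Read composition also set these 2 groups apart, except for KO + IgG replicate 4, and its part in the marker levels was not tested. All 7 skeletal muscle markers were higher in each comparison. The medians were 1.01 with IL-38 inhibited, 0.23 with anti-IL-38, 1.64 with the knockout and 1.34 with γδ TCR blockade. The summed level of these markers ran from 3.91 to 86.2 CPM in WT + IgG, 14.3 to 486 in KO + IgG and 75.6 to 930 in KO + anti-γδTCR. In anti-IL-38 it ran from 8.24 to 407 CPM and with IgG from 10.1 to 113. No muscle marker was at 0 in every tumor of a group, and the part of these cells in the level of Eva1a was not tested.

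Among the other marker lists, all 8 fibroblast markers were higher with IL-38 inhibited (median 0.32) and with anti-IL-38 (0.55), and 5 of 8 with the knockout (0.10). All 9 T-cell markers were higher with anti-IL-38 (0.86), 8 of 9 were lower with the knockout (-0.82) and all 9 were higher with γδ TCR blockade (0.57). Summed over all 9, these markers reached only 2.16 to 17.5 CPM with IgG and 6.31 to 17.5 with anti-IL-38. The sum was 13.3 to 28.3 CPM in WT + IgG, 7.13 to 19.4 in KO + IgG and 10.999 to 19.5 in KO + anti-γδTCR. At such low levels with overlapping ranges, these directions do not show a gain or loss of T cells. All 6 proliferation genes were lower with anti-IL-38 (-0.42), higher with the knockout (0.16) and lower with γδ TCR blockade (-0.71). All 7 milk protein genes were higher with the knockout (1.11), while 5 of 7 were lower with anti-IL-38 (-0.40) and with γδ TCR blockade (-1.004). All 7 adipocyte markers were lower with the knockout (-1.11), and 4 of 7 were higher with anti-IL-38 (0.16). For these lists, too, the part in the level of Eva1a was not tested. In their values with γδ TCR blockade, the antibody and the read composition cannot be told apart.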

How the data were processed

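Whole tumor RNA was sequenced with QuantSeq 3′ FWD, and reads went through the authors' QuantSeq pipeline. The submitters' processing notes name STAR, HTSeq, DESeq2 and the build GRCm39. Deposited was a signal, namely counts that the authors normalized by dividing each library's counts by 1 size factor, separately for 19 and for 8 libraries, with the 4 KO + IgG libraries in both. Dividing by the value of 1 read gave whole reads for 100% of values (within 0.0001%; in WT + IgG replicate 1 rounding cannot be told apart), from which CPM, depth and read-based alternatives were computed. Of 47643 gene identifiers, 47224 had a symbol in GENCODE M21 (GRCm38), used for names and positions.

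Genes averaging 5 or more normalized counts in a comparison were tested with limma 3.58.1 (R 4.3.3, eBayes with trend, two-sided) on log2(normalized count + 1), within a table, with Benjamini-Hochberg adjustment over all genes tested and a threshold of 0.05. The tests were also run on simulated data, with changes placed in genes of higher counts and the same spread for every gene. That run does not cover genes as low as Eva1c or as variable as Eva1a. edgeR 4.0.16 and DESeq2 1.42.0 on recovered reads, other pseudocounts, filters and scalings, a term for experiment, a replicate block and leaving out each tumor were alternatives. Permutation tests compared means of log2 values, with 100000 resamples for the larger correlations. Same-numbered replicates correlated at -0.169 to 0.0746 in their deviations from group means, so the numbers did not pair tumors.

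Named were the members, Il1f10, the 5 genes most like Eva1a by each measure, the nearest protein-coding neighbours and, in each list, genes past the threshold or the 3 with the smallest p and Atg16l1. The members, lists and tests were chosen with earlier results of these data known. Tumors of one group are separate samples by the labels, which do not say whether mice shared a litter. Protein sequences were not used here.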

Additional observations from a re-analysis of the deposited data

How the results depend on the processing

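Of 163 alternative values of the members' differences that carry a test, 157 kept their direction and side of the threshold, and 6 turned in direction, all with 1 tumor left out. They were Eva1b with anti-IL-38 (-0.185 to 0.0800 over the tumors left out) and Eva1c in the knockout (-0.50 to 0.20). The other 66 values are of Eva1a in the comparisons by which it was chosen, where only direction and size were compared and no side of the threshold was recorded, and all 66 kept their direction. Over the settings other than leaving out tumors, the log2 difference of Eva1a was 1.87 to 2.57 with IL-38 inhibited, 1.63 to 2.33 with anti-IL-38, 2.24 to 2.87 with the knockout and -1.16 to -0.86 with γδ TCR blockade (adjusted p 0.198 to 0.369). With 1 tumor left out, the last was -1.29 to -0.68 (adjusted p 0.196 to 0.573). The KO + IgG tumors in that comparison were among those by which Eva1a was chosen. Its values there are thus not independent of the choice, and their steady direction is no support. The number of genes past the threshold moved more. With IL-38 inhibited it was 0 in limma, 1 in edgeR, 70 in DESeq2, 1 with experiment as a term and 0 to 23 with 1 tumor left out, the most without IgG replicate 3. With anti-IL-38 it was 0 in limma, 75 in DESeq2, 1 with the replicate block and 0 to 6 with 1 tumor left out, the most again without IgG replicate 3. With the knockout it was 1 in limma, 0 in edgeR, 298 in DESeq2, 0 with the replicate block and 0 to 7 with 1 tumor left out, the most without WT + IgG replicate 3 or KO + IgG replicate 4. With γδ TCR blockade it was 0 in limma, 1030 in DESeq2 and 0 to 2357 with 1 tumor left out, the most without KO + IgG replicate 4, and 0 under the replicate block. The cause was not tested. The replicate block, which rests on numbers that pair no tumors, changed none of the 6 calls of a member that it could test, those of Eva1b in each comparison and of Eva1a and Eva1c with γδ TCR blockade. The correlation of Eva1a with Eva1c turned to 0.314 within WT + IgG and KO + IgG, and that of Eva1b with Eva1c to 0.332 there and to 0.0890 with a pseudocount of 5. For Eva1c in the comparisons with IL-38 inhibited, count-based tools, quantile scaling, the block and the higher filter were not run because its mean was under the minimum, and its 0 to 14 reads per tumor limit every statement on it. There, the setting without a filter set an adjusted p of limma against the unadjusted p of the permutation test.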
